A study of Homo sapiens with 4 samples.

Results

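MHC class I antigen presentation was followed through 9 genes, of 35211 in the deposited count table, whose names match a fixed set. The set holds the class I heavy chains HLA-B, HLA-C and HLA-E, the light chain B2M, the peptide transporter subunits TAP1 and TAP2, the loading factor TAPBP and the immunoproteasome subunits PSMB8 and PSMB9. All 9 were present in the table, and the set does not hold every class I heavy chain. RNA came from the established human prostate cancer lines DU145 and PC3. Each line had received either the negative control plasmid or the circ0003553 overexpression plasmid, and circ0003553 is a circular RNA whose samples carry the gene name RCAN3 in their titles. There were 4 libraries of ribosomal RNA-depleted total RNA, 1 for each combination of line and plasmid, so that all cells compared had been transfected and no untransfected cells were analysed here.

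MHC class I molecules display peptides from inside the cell to cytotoxic T cells, and HLA-E also signals to natural killer cells. Proteasomes cut proteins into peptides, the TAP1-TAP2 transporter moves these into the endoplasmic reticulum, and tapasin (TAPBP) helps load them onto a heavy chain paired with beta-2-microglobulin (B2M). Interferons raise transcription of many genes of this pathway through IRF factors and the coactivator NLRC5, and tumour cells often express the pathway at low level.

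The upstream sequences of 6 genes are shown first because each held a form of the interferon-stimulated response element (ISRE). RefSeq windows (GRCh38.p14) of 250 bases before a gene start were found for 8 of the 9 genes, in 10 windows, and not for HLA-E. The ISRE was searched on both strands as GAAA, any 2 bases and GAAA. Of the 8 genes, 4 (B2M, TAP1, TAP2 and TAPBP) held it, as did 3.02% of all 35116 windows. HLA-B and HLA-C did not hold these letters but held a form with AGTTTC, any 2 bases and TTCT, a pattern chosen after their sequences were seen, which stood in 0.131% of all windows. The NF-kB consensus was found in 5 of the 8 (HLA-B, HLA-C, B2M, TAP1 and TAPBP; 9.96% of all windows). The letters CCAAT were found in 5 (HLA-B, HLA-C, B2M, TAP1 and PSMB9; 32.0%), and TTCNNNGAA, the GAS element, in TAP1 and PSMB8 (6.57%). The CCAAT of TAP1 and that of PSMB9 are the same bases, because their windows overlap. PSMB8 and PSMB9 held no ISRE letters in these windows, and a match or its absence is a description of the window only.

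In the stretches of HLA-B (chr6:31357220-31357359) and HLA-C (chr6:31272133-31272272), both on the minus strand, capitals mark the NF-kB match, the class I form of the ISRE and each CCAAT, in that order.
HLA-B: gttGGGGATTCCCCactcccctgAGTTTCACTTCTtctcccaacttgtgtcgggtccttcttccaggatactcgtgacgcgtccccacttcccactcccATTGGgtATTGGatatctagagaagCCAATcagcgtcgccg
HLA-C: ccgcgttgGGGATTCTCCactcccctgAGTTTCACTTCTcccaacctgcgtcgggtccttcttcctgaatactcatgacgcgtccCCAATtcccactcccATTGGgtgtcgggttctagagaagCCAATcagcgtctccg
The 250 bases before the start were 89.0% identical between HLA-B and HLA-C after alignment, against 49.5% between HLA-B and B2M.

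In the next stretches capitals mark the ISRE, which overlapped a further copy of itself in B2M (chr15:44711351-44711410, plus strand), TAP1 (chr6:32853816-32853845, minus) and TAPBP (chr6:33314079-33314108, minus), and stood once in TAP2 (chr6:32838778-32838807, minus).
B2M: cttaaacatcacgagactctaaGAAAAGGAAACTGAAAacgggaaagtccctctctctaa
TAP1: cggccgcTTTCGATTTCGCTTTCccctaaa
TAP2: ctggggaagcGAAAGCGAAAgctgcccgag
TAPBP: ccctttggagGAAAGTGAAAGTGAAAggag
By their RefSeq starts TAP1 and PSMB9 are transcribed away from each other, with 487 bases between the PSMB9 start and the nearer TAP1 start. In the deposited table the span of PSMB9 encloses that of TAP1.

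Of the 9 genes, 8 lie in the MHC on chromosome 6 (hg38, coordinates of the deposited table). HLA-E spans 30489467 to 30494205 on the plus strand, HLA-C 31268749 to 31272130 and HLA-B 31353872 to 31357188 on the minus strand. TAP2 (32821833 to 32838780, minus), PSMB8 (32840717 to 32844703, minus), PSMB9 (32844136 to 32859585, plus) and TAP1 (32845209 to 32853978, minus) form 1 cluster, and TAPBP spans 33299694 to 33314387 on the minus strand. B2M lies on chromosome 15 from 44711477 to 44718877 on the plus strand. HLA-C, HLA-E, B2M and TAPBP share no exon base with another gene in the table. TAP2 shares 32.3% of its exon bases with XXbac-BPG246D15.9 on its own strand, and HLA-B 18.0% with XXbac-BPG248L24.12 on the opposite strand. PSMB8, TAP1 and PSMB9 share 21.2%, 9.96% and 5.66% with PSMB8-AS1. That gene lies on the strand of PSMB9, opposite to PSMB8 and TAP1. How reads of shared bases were assigned, and with which strand setting, is not stated in the sources used here. Counts of these genes may thus hold reads of their neighbours or lack reads of the shared bases. The heavy chains are similar to each other, yet no stretch of 150 bases, the length of a read, was shared among the reference transcripts of the 9 genes. Genes outside the 9 did share such stretches, on either strand, with 29.5% of those of TAP2, 13.5% of PSMB8, 11.2% of HLA-B and 6.16% of TAP1. At 50 bases, 82 of 3268 HLA-B stretches, 107 of 2826 in HLA-C and 27 of 3020 in HLA-E occurred in another of the 9. HLA-B and HLA-C also vary strongly between people, and how well the alleles of DU145 and PC3 map to the reference was not tested.

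Library totals ranged from 33438509 to 39488890 counts. Even numbers made up 70.3% to 75.3% of the counts from 1 to 20, so a read pair may often have been counted as 2, and counting intervals are then too narrow. As labelled, both lines had epithelial transcripts (KRT8 at 15637 counts or more, EPCAM at 2732 or more), VIM was at 11344 counts or more, CDH1 had 4821 and 2478 counts in DU145 but 84 and 108 in PC3, and STAT5A was at 0 in both PC3 libraries against 304 and 268 in DU145. The 9 leukocyte markers found, of 12 listed, summed to 2.18 to 4.09 CPM (counts scaled to the library total), with PTPRC at 2 counts in the PC3 control library and 0 elsewhere. The 9 class I genes summed to 1478 (control) and 1923 CPM (circ0003553) in DU145, and to 878 and 1082 CPM in PC3. In bulk RNA, fewer cells expressing a gene and less RNA per cell cannot be told apart.

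Levels are compared between genes as RPKM, reads scaled to gene length and to library size, as the authors deposited them. Where 4 values stand together, the DU145 pair comes before the PC3 pair, and within a pair the control comes before circ0003553. HLA-C, a classical heavy chain that is also a ligand of killer cell receptors, had the highest level of the 9 in each library, at 225, 317, 89.8 and 114 RPKM. HLA-B, the other classical heavy chain in the set, had 105, 143, 59.2 and 78.2 RPKM. HLA-E, whose product presents mainly leader peptides of other class I chains, had 54.1, 71.2, 69.7 and 84.0 RPKM. HLA-E was thus below HLA-B in both DU145 libraries and above it in both PC3 libraries.

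B2M, the light chain shared by all class I molecules, had 21.0, 22.0, 16.6 and 23.4 RPKM. TAP2 had 25.0, 32.9, 15.7 and 15.0 RPKM, and PSMB8 had 21.7, 20.7, 11.3 and 12.0. With the deposited lengths the ranges of B2M, TAP2 and PSMB8 over the 4 libraries overlapped, and their order changed between libraries. TAPBP followed at 12.9, 11.2, 6.11 and 6.58 RPKM, and TAP1 at 6.79, 7.85, 2.30 and 3.16. PSMB9 was the lowest of the 9 in each library, at 3.22, 2.35, 0.428 and 0.528 RPKM. The level of TAP1 was 0.271, 0.239, 0.147 and 0.211 of that of its partner TAP2 with the deposited lengths, and 0.164, 0.144, 0.0887 and 0.127 of it with the principal transcript lengths described next.

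The deposited lengths join all annotated exons of a gene, which lowers RPKM where long rare transcripts exist. B2M has a deposited length of 6089 bases against 1705 for its longest principal transcript in GENCODE release 29. With principal transcript lengths B2M stood at 75.0, 78.4, 59.4 and 83.7 RPKM and HLA-C at 367, 518, 147 and 185. HLA-C remained the highest of the 9, and HLA-B then stood above HLA-E in all 4 libraries (205, 278, 115 and 152 against 61.8, 81.4, 79.7 and 96.0). The order of HLA-B and HLA-E in PC3 thus depends on the gene length used, a choice tried after seeing the data. With principal transcript lengths PSMB8 (38.7, 36.9, 20.2 and 21.4) stood below both B2M and TAP2 (64.1, 84.1, 40.1 and 38.4) in each library. PSMB9 (12.6, 9.22, 1.68 and 2.07) remained the lowest in 3 of the 4 libraries, the exception being the DU145 control, where TAP1 was at 10.5.

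**Figure D1:**
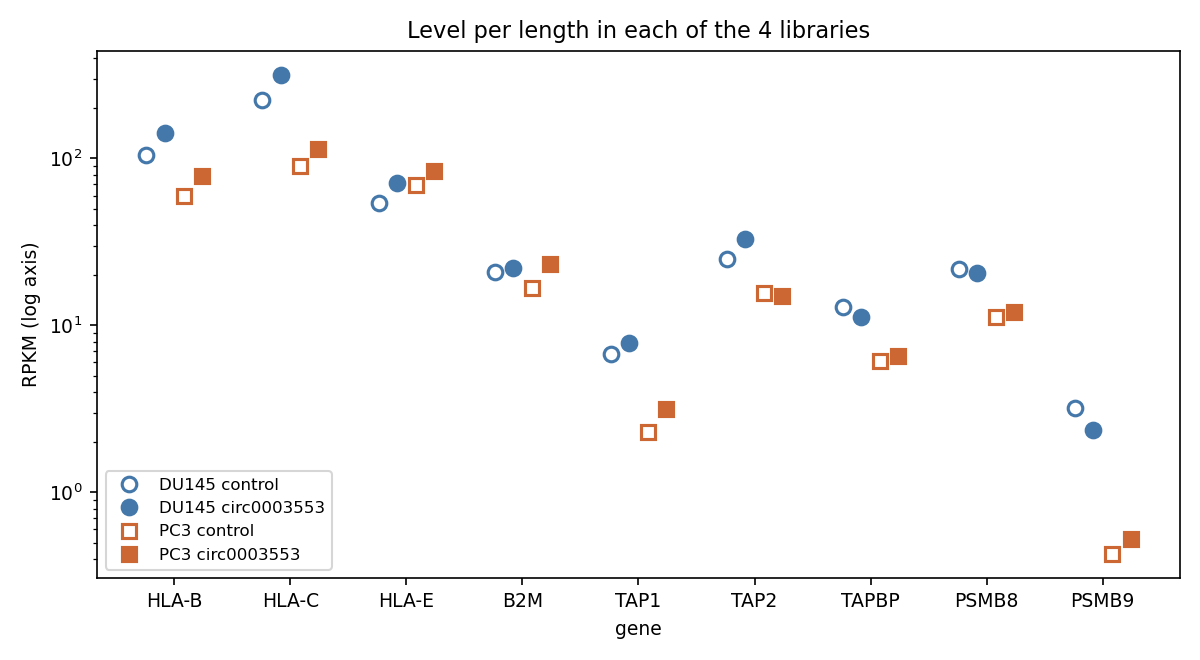
RPKM on a log axis of the 9 genes, with 1 point for each of the 4 libraries (circles DU145, squares PC3, open control, filled circ0003553). HLA-C is highest in each library, from 89.8 to 317 RPKM, and PSMB9 lowest, from 0.428 to 3.22 RPKM.

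The first comparison set the circ0003553 plasmid against the control plasmid. The 3 heavy chains had higher counts with circ0003553 in both lines, and their ratios after scaling to library size were 1.19 to 1.45. B2M and TAP1 were also above control in both lines. TAP2 was above control in DU145 and below it in PC3, and TAPBP, PSMB8 and PSMB9 had lower values in DU145 and higher values in PC3. None of the 9 was called by edgeR's quasi-likelihood test with the cell line as a block (adjusted p under 0.05 over 21731 genes), where 0.465% of genes were called. At an unadjusted p under 0.05 there were 5 of the 9 (HLA-B, HLA-C, HLA-E, B2M and TAP1), against 8.88% of all genes. DESeq2 called 2 of the 9, HLA-B and HLA-C, against 0.290% of all genes, and limma-voom called 0. The test has 2 libraries per plasmid, from different lines, and 1 residual degree of freedom, so its errors rest mostly on a spread pooled over genes (prior degrees of freedom 13.4). Within a line there is 1 library per plasmid, so ratios there have no test and their 95% exact (Clopper-Pearson) intervals hold counting error alone.

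Counts of HLA-B were 12055 (control) and 15690 (circ0003553) for DU145, against 5965 and 9298 for PC3. Both circ0003553 libraries were above the control of their line, but the PC3 circ0003553 library was below the DU145 control. The scaled ratio was 1.40 in DU145 (interval 1.36 to 1.43) and 1.30 in PC3 (1.26 to 1.34). Over both lines the fit gave HLA-B a log2 fold change of 0.43 ± 0.10 (SE; n = 2 libraries, 1 per line, for either plasmid; 95% interval 0.22 to 0.64; edgeR adjusted p = 0.0858), and DESeq2 gave 0.43 with an adjusted p of 0.0076. The antisense gene XXbac-BPG248L24.12, with which HLA-B shares exon bases, had 3811 and 5922 counts for DU145, against 2199 and 4135 for PC3. Its part in the HLA-B values was not tested.

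HLA-C, which shares no exon base with another gene, had 21425 and 29009 counts for DU145, against 7525 and 11239 for PC3. Its ratios were 1.45 in DU145 (interval 1.43 to 1.48) and 1.24 in PC3 (1.21 to 1.28). The counting intervals of the lines did not overlap, and the difference between lines could not be tested, since a term for it would leave no residual degrees of freedom. Across lines the log2 fold change was 0.43 ± 0.10 (95% interval 0.21 to 0.65; adjusted p = 0.111 with edgeR and 0.0493 with DESeq2). HLA-E had 6118 and 7722 counts for DU145, against 6930 and 9863 for PC3, ratios of 1.36 and 1.19, with a log2 fold change of 0.34 ± 0.10 (edgeR adjusted p = 0.240). HLA-E was thus the heavy chain with the lowest fitted change of the 3, and its interval of 0.13 to 0.55 overlapped those of HLA-B and HLA-C.

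B2M had 4867 and 4876 counts for DU145, against 3388 and 5634 for PC3. The ratio was 1.08 in DU145 (interval 1.03 to 1.12) and 1.38 in PC3 (1.33 to 1.45), so the larger ratio was in PC3, unlike for the heavy chains. Its fitted log2 fold change was 0.29 ± 0.11 (edgeR adjusted p = 0.428). In DU145 the level of HLA-C relative to B2M was 10.7 with the control and 14.4 with circ0003553, and in PC3 5.39 and 4.85. For HLA-B the ratios to B2M were 5.01 and 6.51 in DU145 and 3.56 and 3.34 in PC3. With principal transcript lengths the ratios of HLA-C to B2M were 4.89, 6.60, 2.47 and 2.21, and those of HLA-B 2.73, 3.55, 1.94 and 1.82. With either length both ratios were higher with circ0003553 in the DU145 pair and lower with it in the PC3 pair.

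TAP1, the transporter subunit that pairs with TAP2, had 1182 and 1310 counts for DU145, against 352 and 571 for PC3. Its ratios were 1.19 (interval 1.10 to 1.29) and 1.35 (1.18 to 1.55), with a change of 0.33 ± 0.12 on the log2 scale over both lines (edgeR adjusted p = 0.408). TAP2 had 6087 and 7655 counts for DU145, against 3350 and 3786 for PC3, a ratio of 1.35 (1.31 to 1.40) in DU145 and of 0.941 (0.898 to 0.986) in PC3. Its PC3 counts were higher with circ0003553 only before scaling to library size, and the interval from halved counts, 0.881 to 1.01, included 1. The overlapping gene XXbac-BPG246D15.9 had 5633 and 7116 counts for DU145, against 2784 and 3221 for PC3, and its part in the TAP2 values was not tested. Across lines TAP2 had a log2 fold change of 0.18 ± 0.12 (edgeR adjusted p = 0.736).

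TAPBP, the tapasin gene, had 2488 and 2066 counts for DU145, against 1033 and 1314 for PC3. Its ratio was 0.892 (interval 0.841 to 0.946) in DU145 and 1.06 (0.976 to 1.15) in PC3, with a change of -0.05 ± 0.11 on the log2 scale over both lines (edgeR adjusted p = 0.956). PSMB8, a catalytic subunit that replaces PSMB5 in the immunoproteasome, had 1655 and 1513 counts for DU145, against 758 and 950 for PC3. Its ratios of 0.982 and 1.04 both had counting intervals that included 1, and its fitted log2 fold change was 0.02 with a 95% interval of -0.22 to 0.25. PSMB9, which replaces PSMB6, had 376 and 263 counts for DU145, against 44 and 64 for PC3. Its ratio was 0.753 (0.639 to 0.882) in DU145 and 1.20 (0.812 to 1.82) in PC3, where the counts were too few to place it above or below control. The fitted value of PSMB9 was -0.23 ± 0.22 (edgeR adjusted p = 0.845).

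No class I gene of the set was 2-fold apart between plasmids in either line, where 2.02% of 17650 genes in DU145 and 1.15% of 17363 in PC3 were (at least 50 counts in the pair). The median log2 ratio of the 9 was 0.25 in DU145 and 0.27 in PC3, beside 0.00578 and 0.000555 over all genes counted. The ratio was above 1 in both lines for 5 of the 9, and 26.7% of the genes tested were above 1 in both lines. Fitted over the lines, the median of the 9 was 0.29, against 0.00303 for all genes tested. Without the heavy chains, the median within a line over the other 6 genes was 0.0396 in DU145 and 0.175 in PC3, a subset chosen after the values were seen.

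**Figure D2:**
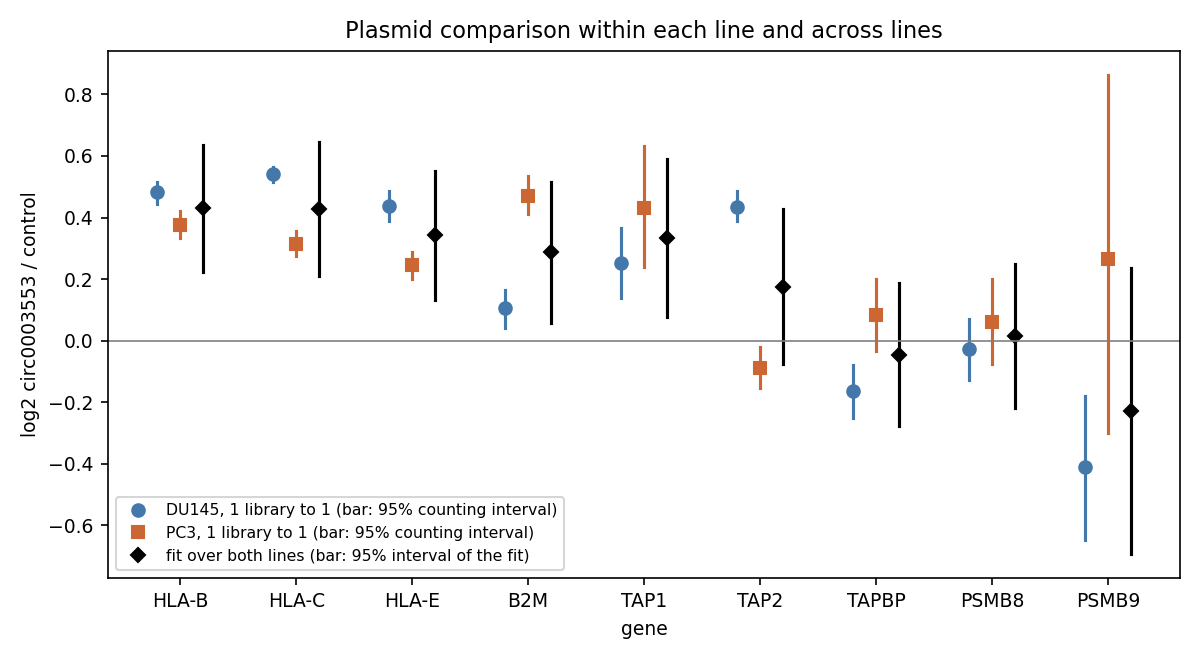
Log2 ratio of circ0003553 to control for each gene in DU145 (circles) and PC3 (squares), with 95% counting intervals, and the fit over both lines (diamonds) with its 95% interval. HLA-B, HLA-C, HLA-E, B2M and TAP1 lie above 0 in both lines, whereas TAP2 is at 0.43 in DU145 and -0.09 in PC3.

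The second comparison set PC3 against DU145, with the plasmids as the replicates of a line. Of the 9 genes, 8 differed (edgeR's quasi-likelihood test, adjusted p under 0.05), 7 lower and 1 higher in PC3. This share is read against a background of 66.0% of all genes called, 32.9% lower and 33.1% higher. Under both plasmids 7 of the 9 were lower in PC3, as were 44.0% of all genes tested. The median log2 difference of the 9 was -0.83, beside 0.000991 over all genes tested.

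PSMB9 showed the largest difference of the set, at 9.88 and 7.21 CPM in DU145 and 1.32 and 1.62 CPM in PC3. Both PC3 libraries were far below both DU145 libraries, and PSMB9 fell by 2.44 ± 0.23 on the log2 scale from DU145 to PC3 (SE, n = 2 libraries per line; edgeR adjusted p = 2.47e-07). TAP1, at 31.1 and 35.9 CPM in DU145 and 10.5 and 14.5 in PC3, fell by 1.36 ± 0.12 (adjusted p = 1.43e-07), and HLA-C, at 563 and 796 against 225 and 285 CPM, fell by 1.33 ± 0.10 (adjusted p = 2.99e-08). The libraries of the lines did not overlap for any of these 3 genes. PSMB8-AS1, which shares exon bases with PSMB9, TAP1 and PSMB8, had 257 and 245 counts for DU145, against 103 and 115 for PC3. Its part in the values of those genes was not tested. TAPBP, TAP2, PSMB8 and HLA-B were also lower in PC3, with log2 differences of -0.85, -0.83, -0.79 and -0.78 and edgeR adjusted p-values of 5.03e-06 to 1.94e-05. For TAP2 the difference was -0.57 between the control libraries and -1.09 between the circ0003553 libraries.

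HLA-E went the other way. It had 161 and 212 CPM in DU145 and 207 and 250 CPM in PC3, so that the DU145 circ0003553 library lay above the PC3 control library, and the log2 difference was 0.37 ± 0.10 (edgeR adjusted p = 0.00374). That call was lost without the plasmid as a term (adjusted p = 0.0630). B2M, at 128 and 134 CPM in DU145 and 101 and 143 in PC3, had a difference of -0.05 with a 95% interval of -0.28 to 0.18 (adjusted p = 0.701), and its sign differed between plasmids. B2M was the only one of the 9 not called between lines, while HLA-C and HLA-B stood in PC3 at 0.397 and 0.583 of their DU145 level. Whether the HLA-C and HLA-B alleles of the lines map equally well to the reference was not tested.

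**Figure D3:**
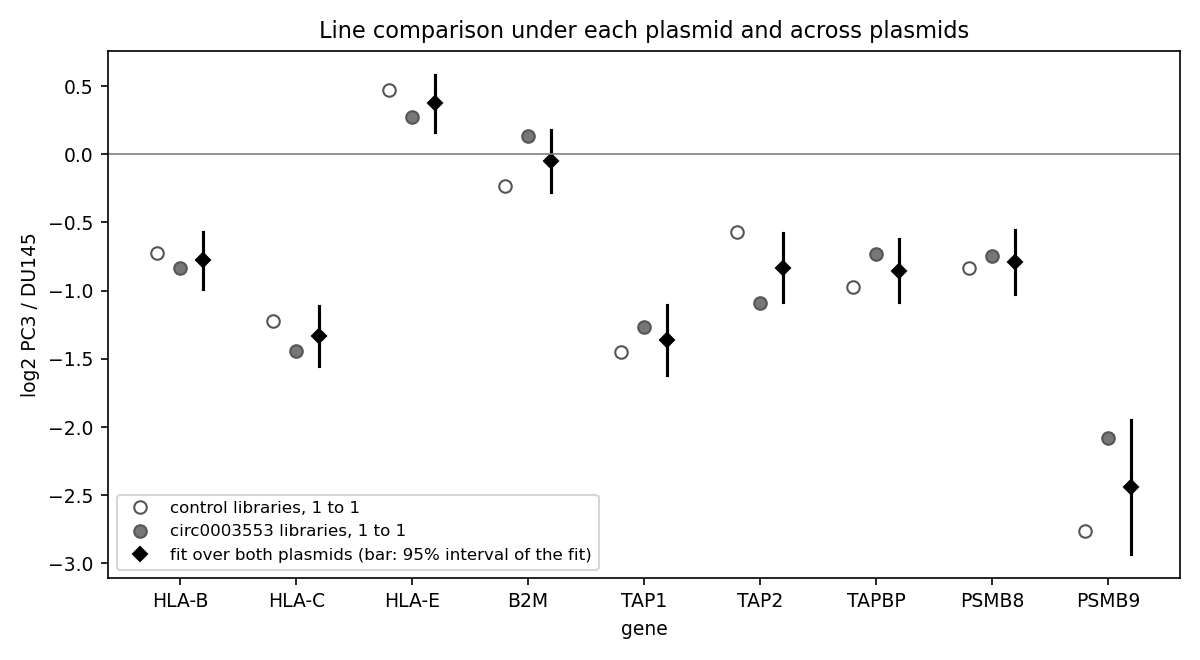
Log2 ratio of PC3 to DU145 for each gene under the control plasmid (open circles) and circ0003553 (grey circles), and the fit over both plasmids (diamonds) with its 95% interval. All genes but HLA-E and B2M lie below 0 throughout, down to -2.76 for PSMB9 under the control plasmid.

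The immunoproteasome subunits were set against the constitutive subunits they replace, as ratios of RPKM within a library. PSMB8 stood at 0.555 and 0.602 of PSMB5 in DU145 and at 0.179 and 0.188 in PC3. PSMB9 stood at 0.0548 and 0.0491 of PSMB6 in DU145 and at 0.00967 and 0.0118 in PC3. PSMB10, the third replacing subunit, stood at 0.0536 and 0.0484 of PSMB7 in DU145 and at 0.0368 and 0.0331 in PC3. For each pair both PC3 libraries lay below both DU145 libraries, and the gap between plasmids within a line was smaller than the gap between lines. With principal transcript lengths PSMB9 stood at 0.127 and 0.114 of PSMB6 in DU145 and at 0.0224 and 0.0273 in PC3. PSMB8 then stood at 0.726 and 0.787 of PSMB5 in DU145 and at 0.234 and 0.246 in PC3. For PSMB10 to PSMB7 these ratios were 0.0447 and 0.0404 in DU145 and 0.0307 and 0.0276 in PC3. While PSMB8 and PSMB9 were lower in PC3, PSMB10 was not called between lines (log2 difference -0.30 ± 0.17, edgeR adjusted p = 0.133). The constitutive PSMB5 was higher in PC3 (0.86 ± 0.10, adjusted p = 2.16e-06), PSMB7 also (0.24 ± 0.10, adjusted p = 0.0347), and PSMB6 was not called (-0.18 ± 0.10, adjusted p = 0.136). PSME1 and PSME2, interferon-inducible partners of PSMB8 and PSMB9, were higher in PC3 (0.84 ± 0.10 and 0.93 ± 0.11, adjusted p = 1.99e-06 and 2.27e-06). With circ0003553 none of PSMB5, PSMB6 and PSMB7 was called (log2 fold changes of -0.13 to -0.05), where 0.465% of all genes were.

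**Figure D4:**
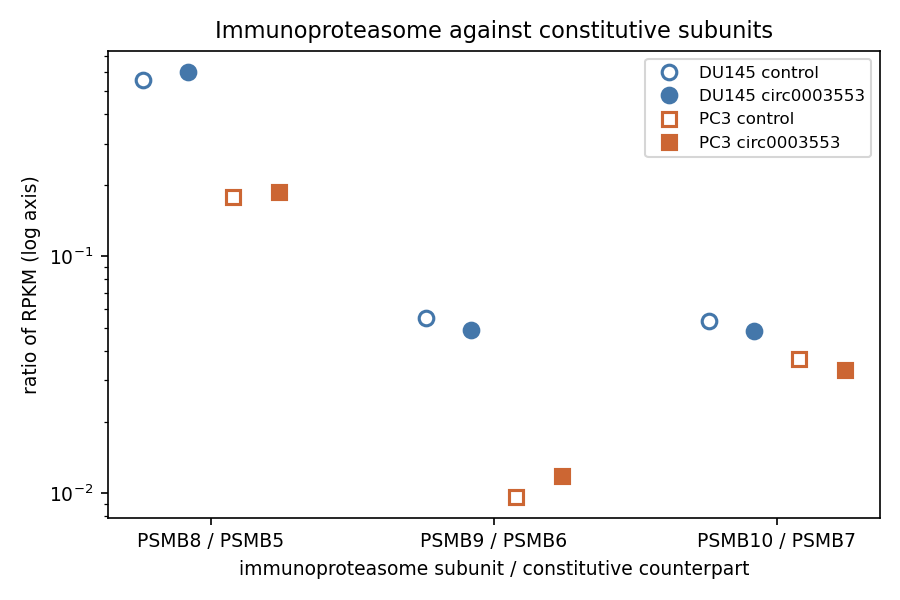
Ratio of RPKM, on a log axis, of each immunoproteasome subunit to the constitutive subunit it replaces, with 1 point per library (circles DU145, squares PC3, open control, filled circ0003553). PSMB8 to PSMB5 is 0.555 and 0.602 in DU145 and 0.179 and 0.188 in PC3, and PSMB9 to PSMB6 is 0.0548 or lower in all 4 with the deposited gene lengths.

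Other genes of the pathway were read from lists that do not overlap the 9. Of 11 transcription regulators of class I genes, 1 rose with circ0003553 and 0 fell, beside 0.396% of all genes that rose and 0.0690% that fell. IRF9, the DNA-binding subunit of a factor that binds the ISRE, had 499 and 1564 counts for DU145, against 571 and 1584 for PC3, and rose by a log2 fold change of 1.48 ± 0.14 (edgeR adjusted p = 4.14e-05). The IRF9 call was lost when low counts were kept (adjusted p = 0.0996). IRF9 shares exon bases with another gene, so its counts may hold reads of it. NLRC5, the coactivator of class I promoters, had 333 and 405 counts for DU145, against 26 and 52 for PC3, a log2 fold change of 0.45 ± 0.20 (adjusted p = 0.536). IRF1, which also binds ISREs, had 960 and 833 counts for DU145, against 391 and 625 for PC3 (log2 fold change 0.14, adjusted p = 0.860). The lowest of the list was RFXAP, at -0.12.

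Between lines, NLRC5 fell by 3.17 ± 0.22 on the log2 scale from DU145 to PC3 (edgeR adjusted p = 1.06e-08), and IRF1 fell by 0.74 ± 0.14 (adjusted p = 0.000281). In all, 5 of the 11 regulators were lower and 3 higher in PC3, a share of calls close to the 66.0% over all genes. The 3 that were higher were RFXANK, IRF2 and STAT2 (log2 differences of 1.12, 0.80 and 0.41).

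No other list close to class I had a called gene in the plasmid comparison, where 0.465% of all genes were called. The 7 tested genes of other class I chains and stress ligands had a median log2 fold change of 0.23, from -0.33 for HFE to 0.36 for HLA-G. The 6 class I pseudogenes had a median of 0.12, from -0.05 (HLA-L) to 1.17 (HLA-W, with 6 to 19 counts). For 8 genes of peptide trimming, chaperones and editing the median was -0.04, from -0.18 for CALR, the calreticulin gene, to 0.01 for SEC61A1. PSMB10, PSME1 and PSME2, interferon-inducible partners of PSMB8 and PSMB9, had -0.20, 0.25 and 0.20. The 11 other core proteasome subunits had a median of -0.09, from -0.32 (PSMA2) to 0.03 (PSMA1). For 9 interferon receptor chains and kinases the median was -0.08, from -0.43 (IL10RB) to 0.28 (JAK2). Of 8 interferon ligands listed, 4 were found in the table and only IFNE had enough counts for the test (17, 8, 8 and 14 counts). IFNL1, IFNL2 and IFNL3 had at most 4 counts in any library.

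**Figure D5:**
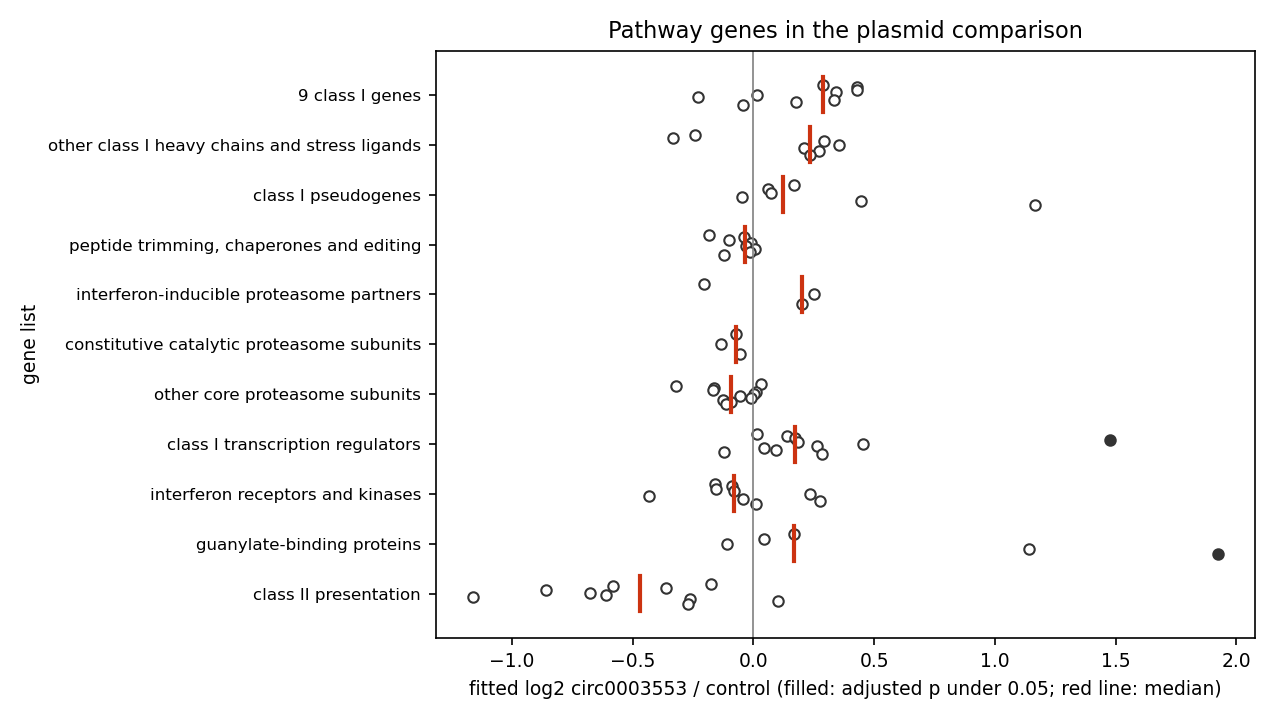
Fitted log2 fold change of circ0003553 against control for each tested gene of the 9 class I genes and of 10 further lists (1 circle per gene, filled where the adjusted p was under 0.05, red line at the list median). The 9 class I genes have a median of 0.29 with no filled circle, and the filled circles are IRF9 and GBP5.

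By the distance between centred log2 CPM profiles over the 4 libraries, the genes most like HLA-B, which had the highest fitted plasmid change of the 9, were TSPO (root mean square distance 0.0272), RP11-1007O24.3 (0.0465) and MBNL1-AS1 (0.0616) among 8188 genes. Those most like PSMB9, with the largest line difference, were NCOA7 (0.0466), UGCG (0.0598) and UGDH (0.0709) among 8189. With 4 libraries such likeness describes these profiles only.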

How the data were processed

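RNA from 4 libraries, 1 per line and plasmid, was analysed. The authors deposited gene-level read counts, as whole numbers, together with RPKM. These RPKM equalled counts divided by gene length and library total within a relative difference of 1e-13. Per the submitters' processing notes, the tools were Trimmomatic 0.36 and featureCounts, listed beside Subread 1.5.1 and edgeR 3.12.1, and the build was hg38. Which aligner was used, whether counting used strand and whether molecular identifiers were collapsed is not given in the sources used here. Columns carrying NC were taken as control and columns carrying RCAN3 as circ0003553.

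Counts were tested with edgeR 4.0.16 (R 4.3.3): TMM scaling (factors 0.967 to 1.04), low-count filter by plasmid, 21731 genes, an additive model of line and plasmid, quasi-likelihood test, Benjamini-Hochberg adjustment at 0.05. Pairing by line comes from the labels. SE is the fitted change over the root of F. Nothing in the labels says that libraries came from separate cultures. Within-line ratios used a prior count of 2. DESeq2 1.42.0 and limma 3.58.1 were alternatives. Named genes were the 9 members, called list genes, otherwise the highest and lowest of each list, NLRC5, IRF1, PSMB5, PSMB6 and PSMB7, and the 3 nearest profiles among genes of mean log2 CPM 4 or more. For class II and leukocyte lists the gene with most counts was added. Members and lists were chosen with earlier results of these data known. The results of 2 listed genes are not reported here.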

Additional observations from a re-analysis of the deposited data

Results flagged for a closer look

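TAP2 was the 1 gene of the 9 whose counting intervals lay on opposite sides of 1 in the lines. Its ratio of circ0003553 to control was 1.35 in DU145 and 0.941 in PC3. The difference between the lines was not tested, and the PC3 interval from halved counts (0.881 to 1.01) included 1.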

How the results depend on the processing

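The directions of all 9 genes in the plasmid and the line fit were the same under 8 alternatives (7 for the 5 genes that share exon bases). Among all genes, the plasmid count of 101 calls became 63 with DESeq2, 53 with legacy dispersions, 47 among genes sharing no exon base, 26 with limma-voom and 9 when low counts were not filtered. Without the cell line block it was 0 by edgeR, so that IRF9 and GBP5 also lost their calls, with 26 genes at an unadjusted p under 0.05. Of the 9 class I genes, 2 were called with DESeq2 and 0 under the other alternatives. HLA-B ranged from 0.42 to 0.44 and HLA-C from 0.42 to 0.48 (log2). Where only genes sharing no exon base were kept, the line comparison called 7051 of 10827 genes tested, and 3 of 4 class I genes. In the main fit it called 14332 of 21731 genes (66.0%), so the lower count goes with fewer genes tested. Leaving out the heavy chains, an alternative added after seeing the data, moved the median log2 ratio within a line to 0.0396 in DU145 and 0.175 in PC3. Leaving out 1 library leaves the ratio of the other line, given in the text with no test. Depth limits PSMB9 in PC3, at 44 and 64 counts.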

Other observations

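MHC class II molecules present peptides to helper T cells. CD74, their invariant chain, had 807 and 674 counts for DU145, against 17 and 16 for PC3, and fell by 5.37 ± 0.22 on the log2 scale from DU145 to PC3 (edgeR adjusted p = 2.70e-11). With circ0003553 none of the 10 class II genes tested was called by edgeR, where 0.465% of all genes were. Their median log2 fold change was -0.47, beside 0.00303 over all genes tested. The range was from -1.16 for HLA-DPB1 (34, 14, 0 and 0 counts) to 0.10 for HLA-DRA (16, 16, 0 and 0 counts). Both ends thus rest on few counts, all from DU145. LST1 had the most counts of the leukocyte markers, at 71 (control) and 84 (circ0003553) for DU145, against 10 and 24 for PC3.

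Of 5 guanylate-binding proteins, interferon-inducible GTPases, 1 was called with circ0003553, where 0.465% of all genes were. GBP5 rose with circ0003553 (log2 fold change 1.92 ± 0.35, adjusted p = 0.0196), from 51 to 226 counts in PC3, with 0 and 4 counts in DU145. Its adjusted p was 0.220 with limma-voom, 0.122 with legacy dispersions and 0.260 when low counts were kept, so the call was lost there. DESeq2 returned none.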
